A study of Rattus norvegicus with 9 samples.

Results

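The matrix metalloproteinases (MMPs) are zinc-dependent enzymes that cut collagens, proteoglycans and other proteins outside the cell. The 10 genes described here are the rows of the deposited count table named Mmp2, Mmp3, Mmp9, Mmp10, Mmp11, Mmp12, Mmp13, Mmp14, Mmp16 and Mmp19, out of 18924 genes. They were chosen by name, and a further 7 rows carry other MMP names. All 10 passed the filter on low counts that left 13856 genes for testing, Mmp12 through only 5 of the 9 libraries (0 RPTi, 3 RPT and 2 RP libraries). RNA came from primary chondrocytes, the cells that build cartilage, of SD rats, grown in DMEM with fetal bovine serum and used at passage 1 or 2. Each of 3 groups had 3 libraries, taken after 24 h. RPTi cells received rat plasma together with thrombin and an inhibitor, RPT cells received rat plasma with thrombin, and RP cells received rat plasma alone. Rat plasma is thus common to all groups. The sources used here name neither the inhibitor nor the doses, nor do they say that replicate libraries represent separate animals or cultures. The p-values therefore reflect library-to-library spread, which may be technical. The series asks how thrombin, the clotting protease that also signals through protease-activated receptors, acts on chondrocytes, and its title names the MEK, Erk1/2 and Stat3 pathway.

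MMPs are made as inactive proenzymes. Plasmin, other proteases or other MMPs remove the propeptide, and tissue inhibitors of metalloproteinases (TIMPs) block the active enzyme. In cartilage, collagenases cut type II collagen, and stromelysins cut proteoglycans and activate procollagenases. Several secreted MMP genes are known to respond to AP-1 and ETS transcription factors. Transcript levels show neither proenzyme activation nor enzyme activity.

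Library totals were 31877265 to 43962783 counts, so that 1 count was worth 0.0226 to 0.0323 CPM (counts scaled to the library size by the TMM method). All 10 chondrocyte markers checked, Col2a1, Acan and Sox9 among them, were measured, and their summed FPKM (counts per kilobase of gene, scaled to the library total) was 15253 to 16613 in RPTi, 6224 to 6694 in RPT and 10297 to 10509 in RP. The 7 macrophage markers summed to 24.5 to 28.8 CPM in RPTi, 44.5 to 46.3 CPM in RPT and 23.5 to 27.3 CPM in RP. Most of that was Cd14, at a mean of 24.2 CPM in RPTi, 40.3 CPM in RPT and 21.4 CPM in RP, while Ptprc, the CD45 gene of all white blood cells, had 0 to 4 counts per library. The 3 neutrophil markers, which include S100a8 and Mpo, summed to 0.112 to 0.223 CPM in RPTi, 0.0610 to 0.433 CPM in RPT and 0.0264 to 0.158 CPM in RP. The osteoclast gene Calcr had 0 counts in all but 1 library, and the 6 osteoclast markers summed to 43.9 to 47.5 CPM in RPTi, 31.3 to 32.7 CPM in RPT and 39.6 to 42.4 CPM in RP, most of it Ctsk. The 4 endothelial markers summed to 0.484 to 1.03 CPM in RPTi, 0.305 to 0.575 CPM in RPT and 0.417 to 0.740 CPM in RP. The 6 fibroblast markers summed to 16238 to 17772 CPM in RPTi, 9795 to 10696 CPM in RPT and 15945 to 17280 CPM in RP, most of it Col1a1 (12568 CPM in RPTi, 6570 CPM in RPT and 12039 CPM in RP). They did not move together: in RPTi against RPT 3 rose and 3 fell, among them Pdgfra (-0.69) and Pdpn (-0.33). In RPTi against RP no fibroblast marker rose and 3 fell, Pdgfra (-0.92), Thy1 (-0.50) and Pdpn (-0.20), the last not without RP replicate 1 (-0.19). Over all genes tested, 28.9% were called in RPT against RP, 41.5% in RPTi against RPT and 24.2% in RPTi against RP. The part of these marker differences in the MMP results was not tested, and in bulk RNA fewer cells of a type and less RNA per cell cannot be told apart.

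The regions before 5 of the 10 genes were matched by symbol in RefSeq (build GRCr8, while the counts were made on Rnor_6.0). On rat chromosome 8, RefSeq places 10 MMP genes in a row, in the order Mmp13, Mmp12, Mmp1b, Mmp3, Mmp1, Mmp10, Mmp8, Mmp27, Mmp20 and Mmp7, with no other protein-coding gene between them. Mmp3, Mmp10, Mmp12 and Mmp13 are the members in this run. The 250 bases before the annotated start are printed for these 4 genes, which were lower in RPTi than in RPT. Mmp9 and Mmp19 were lower too, but had no matched region. The only other member with a matched region, Mmp11 on chromosome 20, is also printed. All printed regions are on the plus strand: Mmp3 at chr8:12925031-12925280, Mmp10 at chr8:12974457-12974706, Mmp13 at chr8:12782579-12782828, Mmp12 at chr8:12866402-12866651 and Mmp11 at chr20:12730034-12730283. Capitals mark matches to the AP-1 motif TGANTCA.
Mmp3: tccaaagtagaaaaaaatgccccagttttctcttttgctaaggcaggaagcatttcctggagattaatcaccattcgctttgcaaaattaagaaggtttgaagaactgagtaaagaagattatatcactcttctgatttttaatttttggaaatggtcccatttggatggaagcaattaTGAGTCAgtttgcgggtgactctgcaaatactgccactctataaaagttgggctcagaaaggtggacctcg
Mmp10: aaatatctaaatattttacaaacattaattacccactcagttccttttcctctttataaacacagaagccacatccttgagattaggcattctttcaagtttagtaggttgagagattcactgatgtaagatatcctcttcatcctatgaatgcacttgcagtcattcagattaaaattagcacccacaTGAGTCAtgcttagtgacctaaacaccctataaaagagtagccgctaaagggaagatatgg
Mmp13: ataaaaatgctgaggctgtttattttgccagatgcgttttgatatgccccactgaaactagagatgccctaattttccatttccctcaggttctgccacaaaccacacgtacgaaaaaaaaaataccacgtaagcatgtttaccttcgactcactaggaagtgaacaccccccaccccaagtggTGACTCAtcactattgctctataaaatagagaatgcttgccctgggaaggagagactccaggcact
Mmp12: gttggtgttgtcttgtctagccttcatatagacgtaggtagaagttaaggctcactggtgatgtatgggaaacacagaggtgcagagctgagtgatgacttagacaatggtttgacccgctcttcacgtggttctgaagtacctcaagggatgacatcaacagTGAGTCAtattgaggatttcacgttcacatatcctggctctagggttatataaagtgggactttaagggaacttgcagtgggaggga
Mmp11: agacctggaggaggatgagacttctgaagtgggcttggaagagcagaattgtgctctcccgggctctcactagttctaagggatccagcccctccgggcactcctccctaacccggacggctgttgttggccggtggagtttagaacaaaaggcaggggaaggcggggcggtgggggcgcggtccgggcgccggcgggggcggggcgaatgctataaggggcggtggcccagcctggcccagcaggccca
Each of the 4 chromosome 8 sequences held 1 AP-1 match, at -71 to -65 in Mmp3, -61 to -55 in Mmp10, -66 to -60 in Mmp13 and -87 to -81 in Mmp12, counted back from the annotated start. The matched letters were TGAGTCA in Mmp3, Mmp10 and Mmp12 and TGACTCA in Mmp13. None was found in the Mmp11 window. Of all 33469 promoters of this length in RefSeq, 6.34% held TGANTCA on either strand. The ETS/PEA3 motif AGGAAG occurred at -206 to -201 in Mmp3 and at -95 to -90 in Mmp13, and in 29.5% of all promoters. The RUNX motif ACCACA occurred at -149 to -144 in Mmp13, and in 14.5% of all promoters. The STAT motif TTCNNNGAA, found in 7.67% of all promoters, was in none of the 5 windows. No matches of different motifs overlapped. In the whole chromosome 8 run, 7 of 10 genes held an AP-1 match, Mmp1, Mmp7 and Mmp20 being the others. Outside the run, Mmp24 fell in RPTi against RPT and Mmp15, Mmp23 and Mmp28 rose, and none of their windows held an AP-1 match. The Mmp23 window held a STAT match at -194 to -186. Of the 12 windows of MMP genes other than the members, in and outside the run, 3 held an AP-1 match and 3 a STAT match. An ETS/PEA3 match was in 5 of these 12 and a RUNX match in 1. These are matches of letters only and show no binding.

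**Figure D1:**
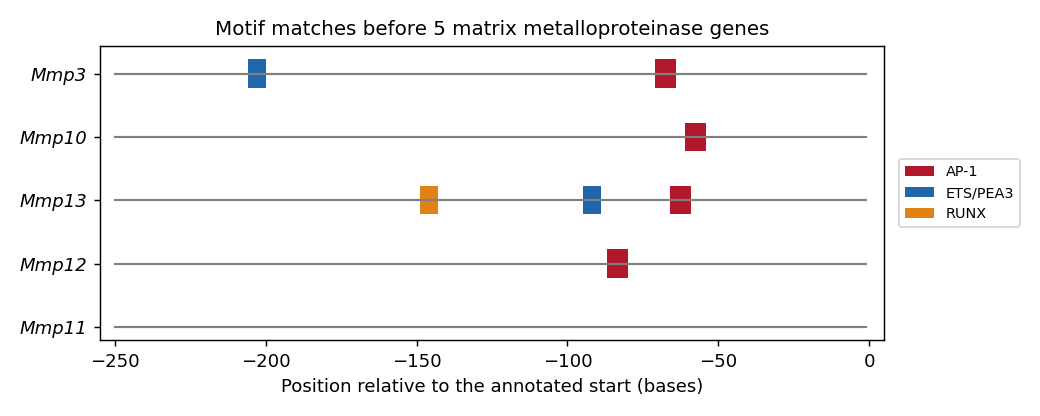
Matches to the AP-1 (red), ETS/PEA3 (blue) and RUNX (orange) motifs in the 250 bases before the annotated start of 5 MMP genes, with position in bases on the horizontal axis and 1 gene per line. An AP-1 match lies between -87 and -55 in Mmp3, Mmp10, Mmp13 and Mmp12, and Mmp11 has no match.

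Per unit of length, the membrane-bound Mmp14 and the gelatinase Mmp2 were the most abundant MMP transcripts in every group. Mmp14 averaged 254.9 ± 6.11 FPKM in RPTi, 247.5 ± 10.6 FPKM in RPT and 248.2 ± 3.13 FPKM in RP (SD, n = 3 each). Mmp2 averaged 143.3 ± 5.90 FPKM in RPTi, 139.2 ± 10.8 FPKM in RPT and 134.2 ± 3.56 FPKM in RP. Together these cell surface and gelatinase transcripts made up most of the summed MMP level. The order below them changed with the group. In RPT libraries Mmp3 came next at 109.2 ± 10.8 FPKM, followed by Mmp19, Mmp13, Mmp16, Mmp11, Mmp10, Mmp9 and Mmp12, and no neighbouring genes in this order had overlapping ranges. In RP libraries Mmp3 was seventh at 5.56 ± 0.465 FPKM, behind Mmp19, Mmp16, Mmp13 and Mmp11, and the ranges of the neighbours Mmp10 and Mmp9 overlapped. In RPTi libraries Mmp11, Mmp3 and Mmp13 followed each other in the order with overlapping ranges, at 7.48 ± 0.756, 7.46 ± 1.10 and 5.48 ± 1.33 FPKM. Mmp12 was lowest in every group.

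The summed level of the 10 genes was 481.0, 479.6 and 503.2 FPKM in the RPTi libraries, 640.3, 627.2 and 585.2 FPKM in the RPT libraries and 494.6, 499.2 and 496.1 FPKM in the RP libraries. All RPT libraries thus lay above the others, while the RPTi and RP ranges overlapped. The sum of Mmp2, Mmp11, Mmp14, Mmp16 and Mmp19 differed little, at 473.8 ± 10.9 FPKM in RPTi, 466.3 ± 22.0 FPKM in RPT and 466.2 ± 4.93 FPKM in RP (SD, n = 3 each). The sum of Mmp3, Mmp9, Mmp10, Mmp12 and Mmp13 was 14.1 ± 2.35 FPKM in RPTi, 151.3 ± 14.2 FPKM in RPT and 30.4 ± 2.70 FPKM in RP. Mmp3 alone made up 1.38% to 1.73% of the summed FPKM of the 10 genes in RPTi, 17.0% to 18.9% in RPT and 1.05% to 1.23% in RP. These sums were grouped after the values were seen and are given as a description. They are in FPKM, which is scaled to library totals and not by TMM.

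**Figure D2:**
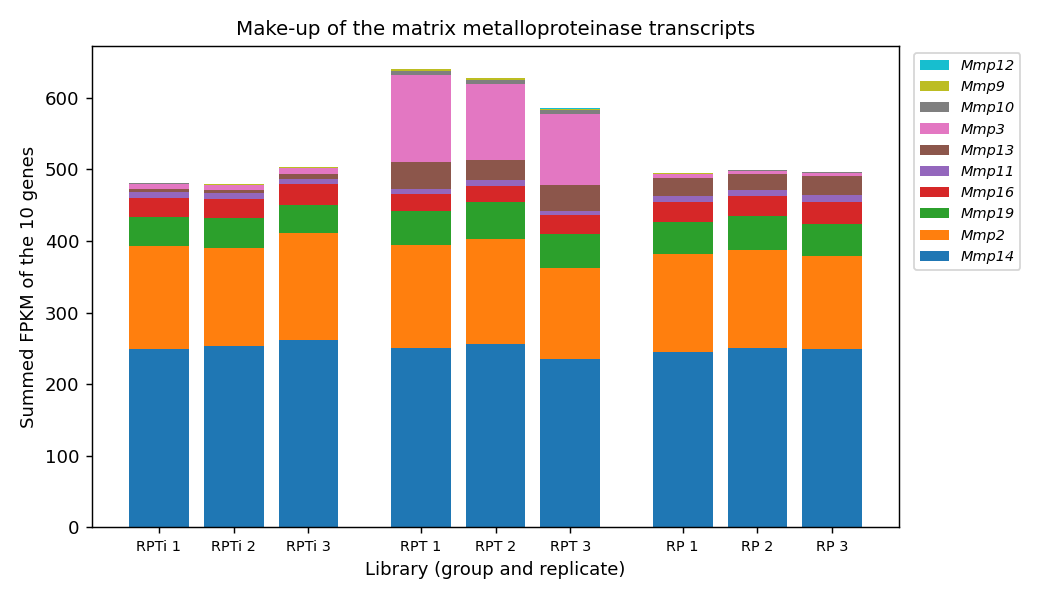
Summed FPKM of the 10 MMP genes in each library, stacked by gene, with 3 libraries each of RPTi, RPT and RP. The RPT bars reach 585.2 to 640.3 FPKM and differ from the others mainly in the Mmp3 segment (99.8 to 121.0 FPKM), while the Mmp14 and Mmp2 segments are of similar height in all libraries.

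With thrombin, 4 of the 10 genes rose and 2 fell, RPT against RP. Over all genes tested, 28.9% were called in this comparison (13.6% rose and 15.2% fell). The median log2 fold change was 0.28 over the 10 members and -0.00071 over all genes tested. The TMM-scaled levels of the RPT and RP libraries did not overlap for 7 of the 10 members and for 40.4% of all genes tested. With the inhibitor added to thrombin, 6 of the 10 fell and 1 rose, RPTi against RPT, where 41.5% of all genes tested were called (20.4% rose and 21.1% fell). The member median was -0.86, beside -0.0083 over all genes, and 8 members did not overlap, beside 50.8% of all genes. Between RPTi and RP, 2 rose and 2 fell, while 24.2% of all genes were called (11.9% rose and 12.3% fell). The member median was 0.03, beside -0.0064 over all genes, and 6 members did not overlap, beside 43.9% of all genes. These comparisons share libraries, so their counts are not independent of each other. The members that fell in RPTi include Mmp12, which passed the filter through no RPTi library. Across the 3 groups, 7 of the 10 members differed by edgeR's F test, as did 46.7% of all genes. With library totals in place of TMM, 38.4% of called genes rose in RPTi against RPT (49.2% with TMM) and 36.6% in RPTi against RP (49.1% with TMM). No called member changed direction under any alternative.

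**Figure D3:**
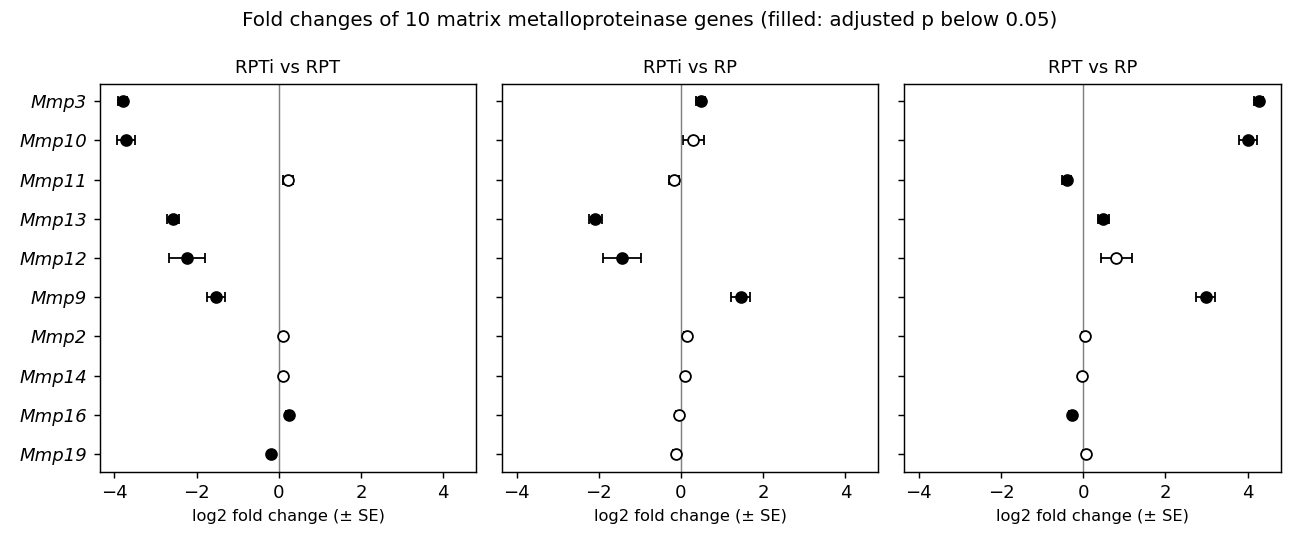
Log2 fold changes of the 10 MMP genes (points, with bars of 1 SE) in RPTi vs RPT, RPTi vs RP and RPT vs RP, filled where the adjusted p is below 0.05. Mmp3 and Mmp10 lie at -3.80 and -3.72 in RPTi vs RPT and at 4.27 and 4.01 in RPT vs RP, whereas Mmp2, Mmp14, Mmp16 and Mmp19 lie between -0.28 and 0.24 in all 3 panels.

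The stromelysins Mmp3 and Mmp10 rose with thrombin and fell when the inhibitor was added to it. Mmp3 (ENSRNOG00000032626), stromelysin 1, which cuts proteoglycans and fibronectin and activates procollagenases, had 12.4, 11.7 and 15.2 CPM in RPTi, 200.02, 179.7 and 168.0 CPM in RPT and 10.3, 9.20 and 8.74 CPM in RP. Every RPT library lay above every other library, and every RPTi library lay above every RP library. In RPT against RP, Mmp3 rose 19.3-fold (log2 fold change 4.27, SE 0.11, adjusted p = 1.91e-10). It fell 13.9-fold in RPTi against RPT (-3.80, SE 0.11, adjusted p = 3.51e-10). It was 1.39-fold higher in RPTi than in RP (0.48, SE 0.11, adjusted p = 0.00837). All 3 calls held under each of 18 alternatives.

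Mmp10 (ENSRNOG00000032832), stromelysin 2, an activator of procollagenases like Mmp3, was less abundant. It had 0.501, 0.840 and 0.698 CPM in RPTi, 9.60, 7.89 and 9.24 CPM in RPT and 0.497, 0.715 and 0.449 CPM in RP. The RPT libraries stood apart, and the RPTi and RP libraries overlapped. Mmp10 rose 16.2-fold in RPT against RP (4.01, SE 0.22, adjusted p = 9.77e-08) and fell 13.1-fold in RPTi against RPT (-3.72, SE 0.22, adjusted p = 4.11e-08). Between RPTi and RP it did not pass (0.30, approximate 95% interval -0.21 to 0.80, adjusted p = 0.44). Mmp3 and Mmp10 are related genes, and the treatment of reads that fit both in the authors' counting is not stated.

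Mmp11 (ENSRNOG00000028344), stromelysin 3, which furin activates inside the cell, moved the other way in RPT against RP. It had 11.7, 12.4 and 10.1 CPM in RPTi, 9.31, 11.02 and 8.72 CPM in RPT and 11.6, 13.5 and 13.3 CPM in RP. The RPT libraries lay below the RP libraries, and the RPTi libraries overlapped both. Mmp11 fell 1.32-fold in RPT against RP (-0.40, SE 0.12, adjusted p = 0.0205), and this call was lost without RP replicate 2 (-0.36), RP replicate 3 (-0.37), RPT replicate 1 (-0.37) or RPT replicate 3 (-0.33), with adjusted p from 0.00739 to 0.0689 over all alternatives. In RPTi against RPT it did not pass (0.23, SE 0.12, adjusted p = 0.134), but passed without RPT replicate 2 (0.33), with adjusted p from 0.0434 to 0.354 over all alternatives. In RPTi against RP it did not pass (-0.17, SE 0.11, adjusted p = 0.31).

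The collagenase Mmp13 and the elastase Mmp12 shared another pattern: their lowest level was with the inhibitor, below plasma alone. Mmp13 (ENSRNOG00000008478), collagenase 3, the main enzyme that cuts type II collagen in cartilage, had 14.0, 11.6 and 18.5 CPM in RPTi, 96.6, 73.8 and 92.0 CPM in RPT and 64.2, 54.9 and 67.4 CPM in RP. No groups overlapped. Mmp13 rose 1.41-fold in RPT against RP (0.49, SE 0.14, adjusted p = 0.0204), a call lost when RP replicate 2 (0.41), or RPT replicate 1 (0.42) or 3 (0.46), was left out, with adjusted p from 0.000666 to 0.0799 over the alternatives. It fell 5.95-fold in RPTi against RPT (-2.57, SE 0.15, adjusted p = 4.57e-08) and 4.23-fold in RPTi against RP (-2.08, SE 0.15, adjusted p = 1.15e-06). Both of these calls held under all 18 alternatives.

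Mmp12 (ENSRNOG00000030187), macrophage elastase, was near the limit of counting, with 7, 2 and 3 counts in RPTi, 21, 20 and 17 in RPT and 15, 9 and 13 in RP. As CPM these were 0.195, 0.0646 and 0.0838 in RPTi, 0.549, 0.619 and 0.518 in RPT and 0.339, 0.268 and 0.343 in RP. The groups did not overlap. Mmp12 passed the filter through RPT and RP libraries alone, so its being tested is tied to the groups where it was higher. Mmp12 fell 4.72-fold in RPTi against RPT (-2.24, SE 0.44, adjusted p = 0.00134), and fell by 2.85 on the log2 scale without RPTi replicate 1. It fell 2.69-fold in RPTi against RP (-1.43, SE 0.46, adjusted p = 0.0413), and fell by 2.04 on the log2 scale without RPTi replicate 1. That second call was lost with DESeq2, with no filter, and without any 1 of the 3 RP libraries (-1.37 to -1.53), the 3 RPT libraries (-1.43 each) or RPTi replicates 2 (-1.17) and 3 (-1.24), with adjusted p from 0.0175 to 0.139 over the alternatives. In RPT against RP it did not pass (0.81, SE 0.38, adjusted p = 0.128), and passed in limma on log2(FPKM + 1), at 0.16, with adjusted p from 0.0267 to 0.30 over the alternatives. Of the 3 macrophage markers tested, Cd14 rose (0.92) and Cd68 rose (0.59, lost without RP replicate 3, at 0.53) in RPT against RP, and both fell in RPTi against RPT. The third, Csf1r, averaged 0.510 CPM in RPTi, 0.488 CPM in RPT and 0.945 CPM in RP, and fell in RPT against RP (-0.94, adjusted p = 0.0449). That call was lost without any single library other than RP replicate 2 (-0.77 to -1.13) and under 6 other alternatives. Ptprc, Adgre1, Aif1 and C1qa had at most 5 counts in any library, and their part in the Mmp12 and Mmp9 results was not tested.

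Of the gelatinases, which cut denatured collagen, Mmp9 moved and Mmp2 did not pass in any comparison. Mmp9 (ENSRNOG00000017539), gelatinase B, had 1.98, 2.68 and 2.15 CPM in RPTi, 6.69, 7.34 and 5.58 CPM in RPT and 1.11, 0.655 and 0.687 CPM in RP. The 3 groups did not overlap, and the RPTi libraries lay between the others. Mmp9 rose 7.88-fold in RPT against RP (2.98, SE 0.23, adjusted p = 1.31e-06) and fell 2.89-fold in RPTi against RPT (-1.53, SE 0.21, adjusted p = 7.38e-05). It was still 2.73-fold higher in RPTi than in RP (1.45, SE 0.23, adjusted p = 0.000689). These 3 calls held under all 18 alternatives.

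Mmp2 (ENSRNOG00000016695), gelatinase A, had 455.5, 434.6 and 468.9 CPM in RPTi, 426.3, 445.9 and 384.2 CPM in RPT and 416.5, 417.2 and 393.2 CPM in RP. The RPT libraries overlapped both other groups, and the RPTi libraries lay above the RP libraries. Its log2 fold change was 0.03 in RPT against RP (approximate 95% interval -0.09 to 0.16, adjusted p = 0.73) and 0.11 in RPTi against RPT (-0.01 to 0.24, adjusted p = 0.172). In RPTi against RP it was 0.15 (0.02 to 0.27, adjusted p = 0.109), and this passed without RPT replicate 3 (0.15) and with only the RPTi and RP groups fitted (0.15), with adjusted p from 0.0378 to 0.306 over the alternatives.

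**Figure D4:**
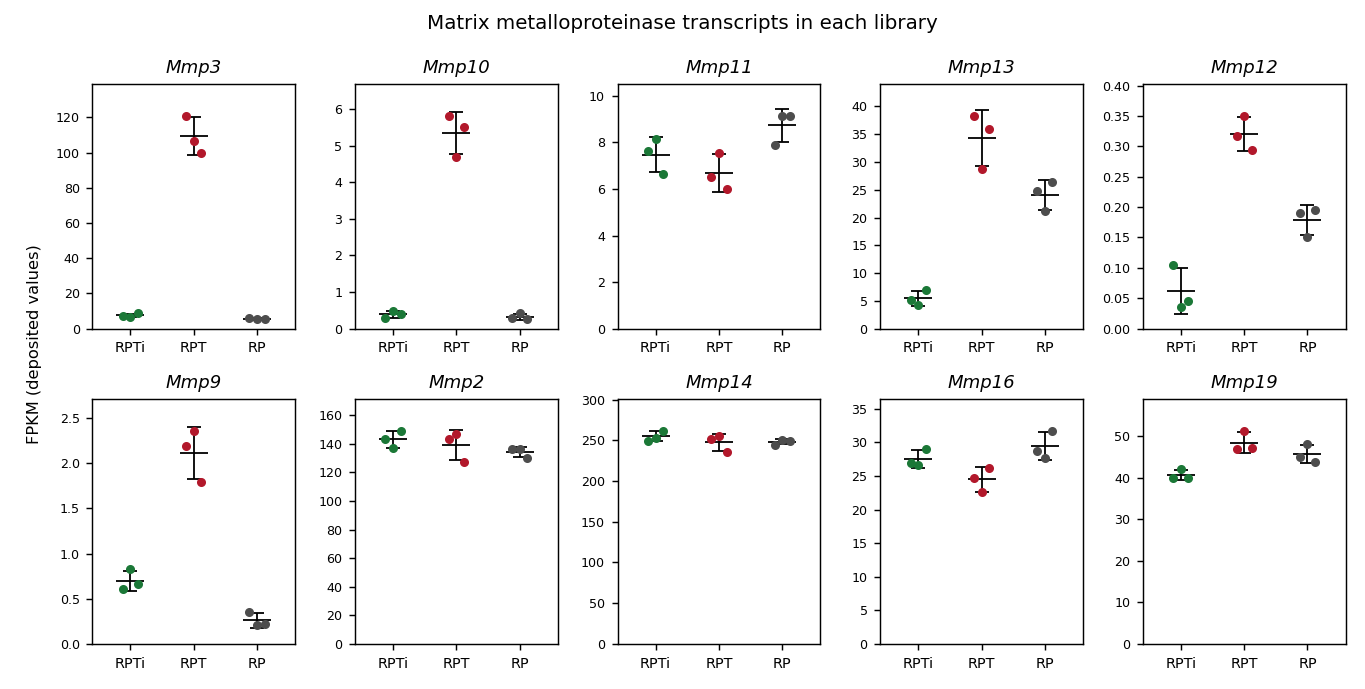
FPKM of each MMP gene in every library (points), with the mean and SD of 3 libraries (bars), for RPTi, RPT and RP, each panel on its own linear axis from 0. The RPT points stand far above the others for Mmp3, Mmp10 and Mmp9, the RPTi points lie lowest for Mmp13 and Mmp12, and the Mmp2 and Mmp14 points lie close together.

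Among the 10 members, the membrane-type Mmp14 and Mmp16 differed little between the groups. Mmp14 (ENSRNOG00000010947), the cell surface activator of pro-Mmp2 and itself a collagenase, had 628.7, 636.3 and 653.0 CPM in RPTi, 592.1, 615.3 and 566.0 CPM in RPT and 592.8, 610.0 and 597.5 CPM in RP. The RPTi libraries lay above the others by a small margin, and the RPT and RP libraries overlapped. Its log2 fold changes were -0.02 in RPT against RP (approximate 95% interval -0.12 to 0.08, adjusted p = 0.79), 0.11 in RPTi against RPT (0.01 to 0.21, adjusted p = 0.0933) and 0.09 in RPTi against RP (-0.01 to 0.19, adjusted p = 0.214). The second of these passed without RPT replicate 2 (0.14) and with a replicate block (0.11), with adjusted p from 0.0345 to 0.52 over the alternatives. Mmp16 (ENSRNOG00000005708), another membrane-bound MMP, had 98.1, 96.5 and 104.8 CPM in RPTi, 84.4, 78.4 and 91.1 CPM in RPT and 100.8, 97.4 and 110.0 CPM in RP. The RPT libraries were lowest, without overlap. Mmp16 fell 1.21-fold in RPT against RP (-0.28, SE 0.07, adjusted p = 0.0116) and rose 1.18-fold in RPTi against RPT (0.24, SE 0.07, adjusted p = 0.0184). The rise was lost with library totals (0.17), in limma on log2(FPKM + 1) (0.16) and on log2(FPKM + 0.1) (0.17), and without RPT replicate 1 (0.24), RPT replicate 2 (0.19) or RPTi replicate 3 (0.20), with adjusted p from 0.000816 to 0.0925 over the alternatives. Between RPTi and RP it did not pass (-0.04, SE 0.07, adjusted p = 0.723).

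Mmp19 (ENSRNOG00000006778), a secreted MMP that cuts basement membrane proteins and aggrecan, had 82.5, 86.8 and 82.2 CPM in RPTi, 90.8, 101.5 and 93.0 CPM in RPT and 89.8, 96.5 and 86.5 CPM in RP. The RPTi libraries lay below the RPT libraries and overlapped the RP libraries, which in turn overlapped the RPT libraries. Mmp19 fell 1.13-fold in RPTi against RPT (-0.18, SE 0.07, adjusted p = 0.0433). This call was lost with no filter (-0.18), with only the RPTi and RPT groups (-0.17), and without RP replicate 1 (-0.18), RPT replicate 2 (-0.13), RPTi replicate 1 (-0.17), RPTi replicate 2 (-0.21) or RPTi replicate 3 (-0.17), with adjusted p from 0.00527 to 0.136 over the alternatives. It did not pass in RPT against RP (0.06, SE 0.07, adjusted p = 0.51) or RPTi against RP (-0.12, SE 0.07, adjusted p = 0.224).

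Replicate spread differed between abundant and rare members. The coefficient of variation (SD over mean CPM) was 1.95%, 4.18% and 1.49% for Mmp14 in RPTi, RPT and RP, against 61.4%, 9.18% and 13.4% for Mmp12. For Mmp3 it was 14.3% in RPTi, 8.86% in RPT and 8.68% in RP.

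The other MMP rows also split. Of 5 tested, 1 rose and 2 fell in RPT against RP, 3 rose and 1 fell in RPTi against RPT, and 3 rose and 1 fell in RPTi against RP. Over all genes tested, 28.9%, 41.5% and 24.2% were called in these comparisons, in this order. Mmp15, a membrane-type MMP, had 12.5, 11.8 and 12.3 CPM in RPTi, 1.86, 2.48 and 1.43 CPM in RPT and 6.24, 5.75 and 5.10 CPM in RP. It ran opposite to Mmp3 in RPT against RP and in RPTi against RPT, but like Mmp3 it was higher in RPTi than in RP. It fell 2.97-fold in RPT against RP (adjusted p = 2.03e-05), rose 6.34-fold in RPTi against RPT (adjusted p = 6.92e-08) and rose 2.14-fold in RPTi against RP (adjusted p = 0.000207). Mmp24, also membrane-bound, averaged 0.212 ± 0.0458 CPM in RPTi, 1.31 ± 0.314 CPM in RPT and 0.545 ± 0.229 CPM in RP (SD, n = 3 each). It fell 6.05-fold in RPTi against RPT (adjusted p = 0.000192). The RPTi mean of Mmp24 lay below the filter level of 0.273 CPM, so its being tested is tied to the groups where it was higher. Its rise in RPT against RP (1.27, adjusted p = 0.0165) was lost without RP replicate 1 (1.27), RP replicate 3 (1.00), RPT replicate 1 (1.14) or RPT replicate 2 (1.19). Mmp23 fell 1.50-fold in RPT against RP and rose 1.86-fold in RPTi against RPT, and Mmp28 rose 1.73-fold in RPTi against RPT. In RPTi against RP, the rise of Mmp23 (0.31, adjusted p = 0.0342) was lost without RP replicate 1 (0.31), RP replicate 3 (0.26), RPTi replicate 1 (0.33) or RPTi replicate 2 (0.21), with library totals (0.25), and in limma on log2(FPKM + 1) (0.24) and log2(FPKM + 0.1) (0.25). The fall of Mmp24 (-1.33, adjusted p = 0.036) was lost there without RP replicate 1 (-1.33), RP replicate 2 (-1.01) or any 1 of the 3 RPTi libraries (-1.18 to -1.47), and in limma on log2(FPKM + 1) (-0.11) and log2(FPKM + 0.1) (-0.62). Mmp1b and Mmp21 had at most 2 counts in any library and were not tested. The collagenase genes Mmp1 and Mmp8 are not analysed here.

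The genes with the most similar profile were taken among those with a mean of at least 5 CPM, by the root mean square (RMS) difference of mean-centred log2 CPM over the 9 libraries. Mmp10 was closest to Mmp3 (RMS 0.30, with 0 meaning an identical profile), then to the innate receptor gene Tlr2 (0.53) and the chemokine gene Ccl2 (0.64). Mmp3, for which Mmp10 lay below the limit of 5 CPM, was closest to Tlr2 (0.62), the lubricin gene Prg4 (0.63) and the chemokine gene Cxcl1 (0.75). Mmp9 was closest to Scube3 (0.34), Prg4 (0.45) and the connexin gene Gjb2 (0.46), and Mmp13 to the growth factor gene Ereg (0.21), Ptprn (0.30) and Ubash3b (0.31). Mmp12 was closest to Reln (0.26), Ralgps2 (0.28) and Cdhr1 (0.30). For Mmp2, Mmp14, Mmp16 and Mmp19, whose levels varied little, the closest genes differed by an RMS of 0.030 to 0.033, and these were Edem2, Pigt, Klf9 and Capzb. For Mmp11 it was Tmem143 (0.066).

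The genes of MMP inhibitors moved in both directions. Of 7 tested, 2 rose and 4 fell in RPT against RP (median log2 fold change -0.36), 4 rose and 2 fell in RPTi against RPT (median 0.52), and 1 rose and 2 fell in RPTi against RP (median -0.07). Over all genes tested, 28.9%, 41.5% and 24.2% were called in these comparisons, in this order. Timp1 averaged 165.0 ± 5.37 CPM in RPTi, 320.6 ± 9.29 CPM in RPT and 242.8 ± 11.2 CPM in RP (SD, n = 3 each), in the same order as Mmp13. It rose 1.32-fold in RPT against RP (adjusted p = 0.00018) and fell 1.94-fold in RPTi against RPT (adjusted p = 4.04e-08). Timp3, the TIMP bound to the matrix, averaged 498.8 ± 32.3 CPM in RPTi, 169.8 ± 21.1 CPM in RPT and 338.8 ± 17.4 CPM in RP, the opposite order. It fell 2.00-fold in RPT against RP (adjusted p = 2.83e-06) and rose 2.94-fold in RPTi against RPT (adjusted p = 2.03e-08). Reck, a membrane-anchored inhibitor of Mmp2, Mmp9 and Mmp14, fell 2.14-fold in RPT against RP (adjusted p = 4.04e-08) and rose 1.79-fold in RPTi against RPT (adjusted p = 5.97e-08). Tfpi2, a serine protease inhibitor also reported to block MMPs, rose 4.59-fold in RPT against RP (adjusted p = 1.07e-05) and fell 4.05-fold in RPTi against RPT (adjusted p = 1.03e-05). The summed level of Timp1, Timp2, Timp3 and Timp4 was 1115 ± 14.8 FPKM in RPTi, 1075 ± 14.3 FPKM in RPT and 1202 ± 4.46 FPKM in RP, above the summed level of the 10 MMP genes in every library.

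**Figure D5:**
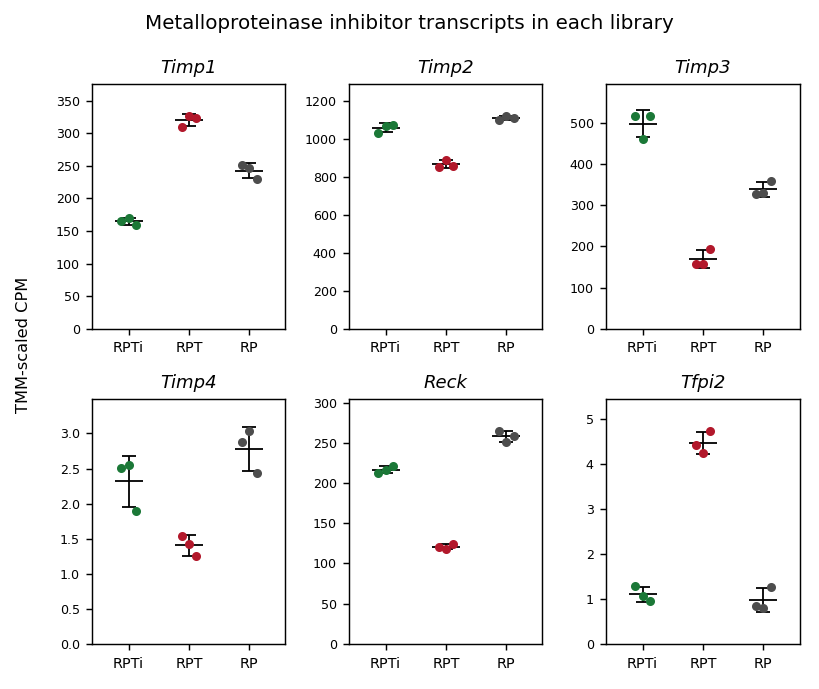
TMM-scaled CPM of 6 inhibitor genes in every library (points), with the mean and SD of 3 libraries (bars), for RPTi, RPT and RP, each panel on its own axis from 0. Timp1 and Tfpi2 are highest in RPT, whereas Timp2, Timp3, Timp4 and Reck are lowest in RPT.

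Of 9 tested genes listed for proenzyme activation, 5 rose and none fell in RPT against RP (median 0.19). In RPTi against RPT 2 rose and 4 fell (median -0.14), and in RPTi against RP 4 rose and 2 fell (median 0.21). Over all genes tested, 28.9%, 41.5% and 24.2% were called in these comparisons, in this order. These shares apply to the uptake and docking genes below too. Htra1, a serine protease of cartilage, averaged 485.3 ± 20.4 CPM in RPTi, 1082 ± 24.2 CPM in RPT and 697.7 ± 18.3 CPM in RP (SD, n = 3 each). It rose in RPT against RP (adjusted p = 2.07e-06). It fell in RPTi against RPT (adjusted p = 4.23e-09) and in RPTi against RP (-0.52, adjusted p = 1.29e-05). Whether Htra1 activates MMP proenzymes was not tested. Plaur, the urokinase receptor gene, rose 2.30-fold in RPT against RP (adjusted p = 3.94e-06) and fell 1.70-fold in RPTi against RPT (adjusted p = 7.47e-05). The urokinase gene Plau did not pass in RPT against RP (-0.14, adjusted p = 0.327) but fell 1.82-fold in RPTi against RPT (adjusted p = 2.26e-05). Of 5 genes of MMP uptake and docking, 1 rose and 1 fell in RPT against RP (median 0.03), 2 rose and 1 fell in RPTi against RPT (median 0.17), and 1 rose and 1 fell in RPTi against RP (median 0.12). Cd44, a hyaluronan receptor that can hold Mmp9 at the cell surface, rose 2.07-fold in RPT against RP (adjusted p = 6.75e-07) and fell 3.24-fold in RPTi against RPT (adjusted p = 4.23e-09). Cd44 fell in RPTi against RP too (-0.64, adjusted p = 4.96e-05).

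Of the 19 tested genes of transcription factors known to act on MMP promoters, 11 rose and none fell in RPT against RP (median log2 fold change 0.27). In RPTi against RPT, 1 rose and 12 fell (median -0.34), and in RPTi against RP, 3 rose and 7 fell (median -0.07). Over all genes tested, 28.9%, 41.5% and 24.2% were called in these comparisons, in this order. The AP-1 gene Fosl1 averaged 5.24 ± 1.02 CPM in RPTi, 62.7 ± 1.18 CPM in RPT and 18.7 ± 1.21 CPM in RP (SD, n = 3 each), lowest in RPTi as Mmp13 was. It rose 3.35-fold in RPT against RP (adjusted p = 1.42e-07), fell 12.01-fold in RPTi against RPT (adjusted p = 4.90e-10) and fell 3.59-fold in RPTi against RP (adjusted p = 2.55e-07). Jun and Junb, which pair with FOS proteins, rose 1.69-fold and 1.85-fold in RPT against RP, and fell 1.88-fold and 1.75-fold in RPTi against RPT. Neither passed in RPTi against RP (Jun -0.15, adjusted p = 0.0796, and Junb 0.08, adjusted p = 0.561). Other AP-1 genes did not follow this course. Fos and Fosb passed in no comparison, and Fos averaged 8.26 CPM in RPTi, 5.91 CPM in RPT and 4.92 CPM in RP. Fosl2 rose in RPT against RP (0.44, adjusted p = 0.00189) and in RPTi against RP (0.43, adjusted p = 0.00268). In RPTi against RPT, Fosl2 did not pass (-0.0085, adjusted p = 0.945). The PEA3-type ETS gene Etv5 rose 1.43-fold in RPT against RP (adjusted p = 0.00029) and fell 3.50-fold in RPTi against RPT (adjusted p = 4.23e-09). Etv4, of the same family, rose 2.02-fold in RPT against RP (adjusted p = 0.000905) and fell 8.24-fold in RPTi against RPT (adjusted p = 1.09e-07). Etv1, also of this family, did not pass in RPT against RP (-0.11, adjusted p = 0.409) and fell 6.02-fold in RPTi against RPT (adjusted p = 1.77e-09). In RPTi against RP, Etv5 (-1.29, adjusted p = 2.60e-07), Etv4 (-2.03, adjusted p = 1.46e-05) and Etv1 (-2.70, adjusted p = 6.59e-09) all fell.

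The interleukin 1 genes, known to induce MMPs, had few counts. Il1b had 0 counts in every RPTi library, 6, 9 and 3 in the RPT libraries and 0 in every RP library, and Il1a had 0 in every RPTi library, 6, 3 and 0 in the RPT libraries and 0 in every RP library. Of 6 tested genes of interleukin 1, interleukin 6, oncostatin M and TNF signalling (ligands and receptors), 3 rose and none fell in RPT against RP (median 0.18), none rose and 3 fell in RPTi against RPT (median -0.42), and none rose and 1 fell in RPTi against RP (median 0.10). The 3 that rose belong to the interleukin 6 and oncostatin M axis: Il6 (log2 fold change 2.55, or 3.14 without RP replicate 1), Osmr (0.47) and Il6st (0.23). Il6 was near the limit of counting, with 18, 5 and 11 counts in RPTi, 29, 23 and 27 in RPT and 9, 2 and 4 in RP. Every RP library lay below the filter level of 0.273 CPM for Il6, so its being tested is tied to the groups where it was higher. The Il6st call was lost without RP replicate 1 (0.21), RP replicate 2 (0.20) or RPT replicate 3 (0.17). Those that fell in RPTi against RPT were Il1r1, Osmr (-0.67) and Il6 (-1.22). The Il6 call was lost with DESeq2 (-1.23), with no filter (-1.22), and without any 1 of the 3 RPT libraries (-1.16 to -1.26) or RPTi replicates 2 (-0.91) and 3 (-1.17). The interleukin 1 receptor gene Il1r1 did not pass in RPT against RP (0.12, adjusted p = 0.349). It fell 2.42-fold in RPTi against RPT (adjusted p = 2.72e-07) and 2.23-fold in RPTi against RP (adjusted p = 2.56e-06). Over all genes tested, 28.9% were called in RPT against RP, 41.5% in RPTi against RPT and 24.2% in RPTi against RP. These shares apply to the signalling genes above and the substrate genes next. Of 18 genes of MMP substrates, 4 rose and 13 fell in RPT against RP (median -0.62), 13 rose and 4 fell in RPTi against RPT (median 1.32), and 11 rose and 2 fell in RPTi against RP (median 0.56). Of these genes, 7 are also among the 10 chondrocyte markers, all of which fell in RPT against RP and rose in RPTi against RPT, and Col1a1 is also a fibroblast marker. A split made after the values were seen leaves 10 substrate genes in neither marker list. Of these, 4 rose and 5 fell in RPT against RP, and 5 rose and 4 fell in RPTi against RPT. In RPTi against RP, 5 rose and 2 fell. The 10 still include cartilage matrix genes, and Col9a2 (-0.52), Col11a2 (-0.58) and Fmod (-0.66) were among those that fell in RPT against RP. The split therefore does not separate cartilage genes from others. Spp1, which encodes osteopontin, a substrate of Mmp3, was among the 4 that rose in RPT against RP. It had 432.3 ± 34.1 CPM in RPTi, 5155 ± 726 CPM in RPT and 2192 ± 116 CPM in RP (SD, n = 3 each), and fell in RPTi against RP (-2.34). Prg4, another of the 4, rose more in RPT against RP (3.80, beside 1.23 for Spp1). It fell in RPTi against RPT (-2.31) but, unlike Spp1, was higher in RPTi than in RP (1.49).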

How the data were processed

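Poly-A selected RNA of 9 libraries was sequenced, per the labels' protocols. The authors deposited whole-number counts for each Ensembl gene. Build Rnor_6.0 and the tools HISAT2, DESeq2 (1.26.0) and HTSeq (0.11.2) are listed, without roles, per the submitters' processing notes. Strand setting and annotation release are not given in the sources used, so reads of overlapping or antisense genes are uncertain. The deposited FPKM equals the count divided by library total and a whole-number gene length (largest relative difference 2.23e-13), and FPKM served only for levels between genes and 2 alternatives.

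Groups came from the sample titles. Genes were kept by filterByExpr (minimum count 10, minimum total 15), scaled by TMM, and tested in 1 quasi-likelihood fit over all 9 libraries (edgeR 4.0.16, R 4.3.3). Adjusted p-values are Benjamini-Hochberg over 13856 genes, with a threshold of 0.05. The SE is the log2 fold change over the square root of F, and approximate 95% intervals are 1.96 SE wide on each side. Counting error limits the precision of low counts. The fit was tested on simulated data. Replicates of a group differed by more than sampling noise (chi-square per degree of freedom 5.06 to 27.6). The alternatives were DESeq2 (1.42.0) and its size factors, library totals, 2 other filters, limma (3.58.1) on log2 FPKM with a pseudocount of 1 or 0.1, pairwise fits, a replicate block and leaving out each library.

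The MMP members, related lists and motifs were chosen with earlier results of these data known. Named are all members, up to 4 called genes per list and comparison, and the 3 closest profiles of each member (the first only for 5 members). Cd14, Ptprc and other marker genes, Il1a, Il1b, Fosl2, Mmp1b and Mmp21 were named outside this rule, as was any gene given where it did not pass.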

Additional observations from a re-analysis of the deposited data

How the results depend on the processing

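Over 30 combinations of member and comparison, 497 of 536 values under the alternatives kept their direction and their side of the threshold, 30 lost a call and 6 gained one. The sign changed in 3, all uncalled and near 0. These were Mmp2 in RPT against RP without RPT replicate 2 (-0.013; range without single libraries -0.013 to 0.093), Mmp14 in RPT against RP without RPT replicate 3 (0.0094; -0.051 to 0.0094) and Mmp16 in RPTi against RP without RP replicate 3 (0.011; -0.083 to 0.011). The number of members called ranged from 4 to 6 (RPT against RP), 5 to 7 (RPTi against RPT) and 3 to 4 (RPTi against RP) when single libraries were left out. With at least 1 CPM in 3 libraries, Mmp12 was not tested. A pseudocount of 1 FPKM lowered Mmp10 to 2.25 and Mmp9 to 1.30 on the log2 scale in RPT against RP, by its construction.

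Libraries with the same replicate number showed no clear shared deviation. Their deviations from the group means correlated at -0.114 to 0.124 in 9 pairs, against -0.161 to 0.143 in 18 pairs with different numbers. Deviations within a group sum to 0, so these correlations check pairing only weakly. A fit with a replicate block called 6 members of 5074 genes in RPT against RP (3999 genes without the block), 8 of 6698 in RPTi against RPT (5745 without) and 4 of 4689 in RPTi against RP (3352 without), and 8 members in the F test. Mmp14 in RPTi against RPT (0.11) was the only member call between 2 groups that it changed. Counting depth limits Mmp12.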
